A study of Homo sapiens with 4 samples.

Results

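H9 human embryonic stem cells labelled as passage 200s (group P3) were compared with H9 cells labelled as passage 40s (group P1). H9, also called WA09, is an established pluripotent line derived from a human embryo. The comparison rests on 2 of the 4 arrays of the series, 1 from P1 and 1 from P3. The other groups, P2 (passage 100s) and P4 (passage 300s), also have 1 array each and are used here only to place the levels of P1 and P3. The labels give no treatment, no genetic change, no culture medium and no feeder cells, and they do not say whether later groups descend from the culture sampled as P1. Passage group is therefore the only labelled difference. With 1 array per group there was no replicate spread to test against, so no difference below has a replicate check or a p-value. A fold describes these arrays.

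Total RNA was measured on Illumina whole-genome bead arrays. Each level below is a linear, background-subtracted probe intensity as deposited, and a negative value is a probe dimmer than the background. A gene counted as detected when its probe reached the array's 60th percentile, which was 38.4 in both P1 and P3. Values under that limit were held at it, and the difference is log2 of P3 minus log2 of P1, so that a positive value means higher in P3. Where the dimmer array was under the limit, the fold is a lower bound and is written "at least". Of 19951 genes with a probe, 11369 were detected in P1, 11400 in P3 and 11844 in at least 1 of them.

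Embryonic stem cells divide rapidly, with a short gap between mitosis and DNA synthesis, and draw much of their energy from glycolysis. They respond to DNA damage chiefly through the transcription factor p53, which turns on a cell cycle inhibitor, pro-death genes and repair genes. Metallothioneins are small cysteine-rich proteins that bind zinc and copper. Their genes lie together on chromosome 16 and are switched on by the zinc-sensing factor MTF1 through short metal response elements in their promoters. In long-term culture, pluripotent lines are known to acquire recurrent chromosome gains, and the band 20q11.21 is a frequent one.

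Across all detected genes, 229 were at least 2-fold higher in P3 (1.93% of those tested) and 190 at least 2-fold lower (1.6%), together 419 (3.54%). Both arrays measured the gene in 183 of the higher and 135 of the lower cases, and the other folds are bounds. The median difference over all genes was 0.018 on the log2 scale, the central 95% of genes lay between -0.85 and 0.92, and 6180 genes (52.2%) were above 0. The low side held the larger folds: 37 genes were at least 4-fold lower and 16 at least 10-fold lower, against 14 and 2 on the high side. As a yardstick for size, 2662 genes had a pair of probes that both arrays detected, and their probes disagreed on the P3 to P1 difference by a median of 0.21. Of the 419 genes, 85 had another detected probe, which moved the same way in 70 and the opposite way in 15.

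**Figure D1:**
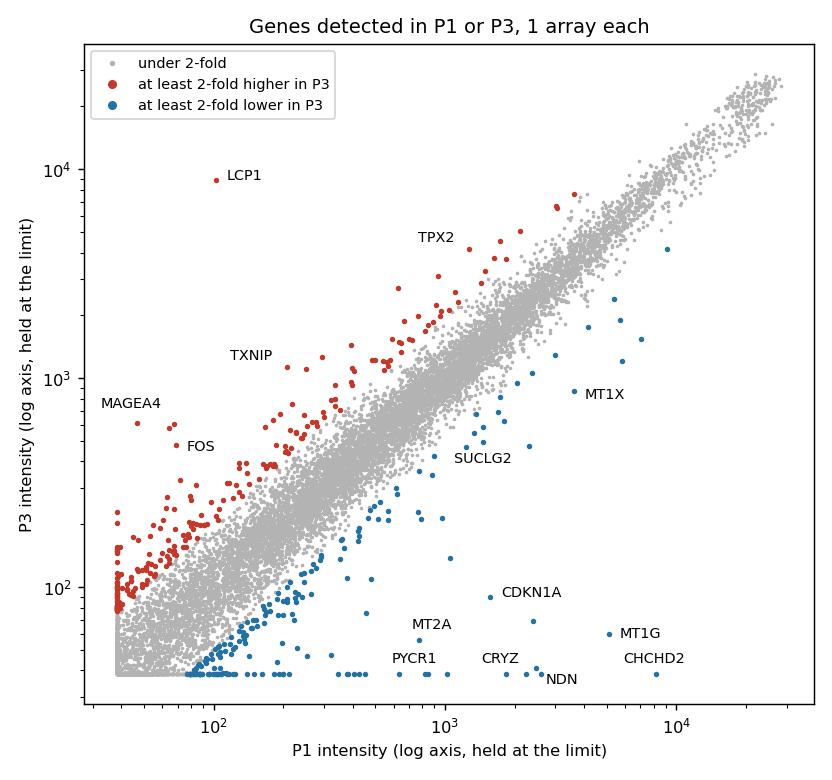
Intensity of each of the 11844 detected genes in P1 (horizontal, log axis) and P3 (vertical, log axis), held at the limit of 38.4, with genes at least 2-fold higher in P3 in red and at least 2-fold lower in blue. LCP1 stands alone at the upper left, and metallothionein genes, CDKN1A, NDN, PYCR1, CRYZ and CHCHD2 lie far below the diagonal.

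Markers that define embryonic stem cells were checked first. All 7 markers with a probe were detected on every array, and their summed intensity was 54233.5 in P1 and 54217.0 in P3. None of the 4 trophoblast markers was detected in P1 or P3, and neither of the ectoderm markers with a probe, PAX6 and SOX1, reached the limit. Of 4 endoderm markers 1 was detected in P1 (AFP) and 2 in P3 (AFP and FOXA2). Their summed intensity was 61.6 in P1 and 204 in P3. Of 3 mesoderm markers only KDR was detected, at 142 in P1 and 164 in P3. The same 2 of 5 fibroblast markers (COL1A1 and THY1) and the same blood marker, CD34, were detected in all groups, while the fibroblast markers LUM, DCN and COL3A1 were under the limit in P1 and P3. The summed fibroblast marker intensity was 4162.5, 4788, 5907 and 6771 from P1 to P4. Most of that sum was the single gene THY1, at 3659, 4041, 5068 and 5811, so it is not a measure of fibroblast content. Its part in the results below was not tested. In RNA from a whole culture, fewer cells of a type and less RNA per cell cannot be told apart.

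Metallothionein genes showed the largest shift of any class. All 7 detected members were at least 2-fold lower in P3, with a median of -5.12 against 0.018 for all genes. Across P1, P2, P3 and P4, MT1G had intensities of 5109, 379.6, 59.5 and 6201, so P3 was 85.8-fold below P1. MT1H read 2604, 112, 9.02 and 2013 in the same order and was at least 67.8-fold lower in P3. MT1F read 2235, 424, 37.3 and 2992, at least 58.2-fold lower. P3 was the lowest array for each of them, and P4 lay close to P1. MT1E, at 2404, 137, 69.1 and 2777, was 34.8-fold lower in P3. The most widely expressed isoform gene, MT2A, read 769.7, 116, 55.8 and 799 and was 13.8-fold lower. MT1X, at 3613, 1340.5, 865 and 5795, was 4.18-fold lower. MT1M was dim even in P1, at 78.7, and under the limit in P3, which bounds its loss at 2.05-fold. In 6 of the 7 genes P3 was the lowest of the 4 arrays, whereas it was the lowest for 20.1% of all detected genes. For MT1M both P2 and P3 were under the limit and have no order. The probes of these near-identical genes may share signal, so the 7 are not independent readings.

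The letters that MTF1 is known to bind were looked for in the promoters, because the members moved together. The sequences below are the 250 bases before the gene's start from RefSeq (GRCh38.p14, plus strand for all 3): MT2A at chr16:56608334-56608583, MT1X at chr16:56682220-56682469 and MT1H at chr16:56669564-56669813. Capitals mark metal response element cores, TGCACNC or TGCGCNC, on either strand.
MT2A: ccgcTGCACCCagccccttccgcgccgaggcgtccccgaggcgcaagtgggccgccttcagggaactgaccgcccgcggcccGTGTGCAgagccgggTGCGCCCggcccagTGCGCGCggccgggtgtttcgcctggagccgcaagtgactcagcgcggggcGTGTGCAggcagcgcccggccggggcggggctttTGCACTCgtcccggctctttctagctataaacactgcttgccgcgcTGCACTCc
MT1X: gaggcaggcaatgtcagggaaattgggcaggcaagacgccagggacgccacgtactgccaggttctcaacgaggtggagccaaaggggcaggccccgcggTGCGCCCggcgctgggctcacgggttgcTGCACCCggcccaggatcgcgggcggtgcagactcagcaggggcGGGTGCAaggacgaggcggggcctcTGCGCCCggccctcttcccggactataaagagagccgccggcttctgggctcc
MT1H: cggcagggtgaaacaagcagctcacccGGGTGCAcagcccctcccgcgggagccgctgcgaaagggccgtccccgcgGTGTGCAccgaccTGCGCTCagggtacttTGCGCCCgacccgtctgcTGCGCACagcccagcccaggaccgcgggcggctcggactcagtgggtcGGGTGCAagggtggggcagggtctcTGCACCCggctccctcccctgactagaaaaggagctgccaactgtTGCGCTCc
The core occurred 7 times in MT2A, 4 times in MT1X and 8 times in MT1H. Among 27195 promoters of the same length, 24.8% held at least 1 match and 0.368% held 4 or more. A match describes the letters in the window and is not a measured binding site.

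Genes that move zinc did not share a shift of that size. Among 17 detected zinc transporters and MTF1 together, none was 2-fold different and the median was -0.10. MTF1 itself differed by 0.15. SLC30A1, the zinc exporter at the cell surface and itself a known MTF1 target, differed by -0.58, and SLC30A3, which loads zinc into vesicles, by -0.83. Both of these lay below most of their list but inside the 2-fold limits. SLC30A1 read 223, 163, 150 and 207 in P1 to P4, lowest in P3 as for most metallothioneins, and its other probe differed by -0.44. SLC30A3 read 563, 264, 316 and 477, lowest in P2. P3 was the lowest array for 4 of the 17 genes (23.5%), against 20.1% of all genes.

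Targets of p53 formed the other low stress class. Of 29 detected targets, 8 were at least 2-fold lower in P3, none was 2-fold higher, 2 lay above 0 and the median was -0.62. Among all genes 1.6% were 2-fold lower. CDKN1A, which encodes the p21 inhibitor of cyclin-dependent kinases, read 1566, 489, 89.7 and 2546 in P1 to P4. P3 was 17.5-fold below P1 and the lowest of the 4. PHLDA3, an inhibitor of AKT signalling, read 381, 143, 15 and 411, at least 9.93-fold lower. GDF15, a secreted stress cytokine, read 199, 38.4, -5.27 and 265, at least 5.19-fold lower. DDB2, a sensor of ultraviolet damage, read 188, 111, 43.7 and 193, a 4.29-fold difference. These 4 genes share the pattern of the metallothioneins, high in P1 and P4 and low in P3, although GDF15 was under the limit in P2 as well.

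The remaining p53 targets past 2-fold were closer to that limit. SESN1, a stress-induced regulator of growth signalling, was 2.41-fold lower. RRM2B, the ribonucleotide reductase subunit used for repair, was 2.37-fold lower, the nuclease gene AEN 2.33-fold and the growth arrest gene GADD45A 2.03-fold. The other probe of GADD45A differed by -0.75, inside the limit, and that of RRM2B by -1.63. BAX, which opens the outer mitochondrial membrane during apoptosis, read 1728 in P1 and 869 in P3, a difference of -0.99 that falls just short. TNFRSF10B (a death receptor, -0.88, with a dimmer probe at 0.43), TRIAP1 (-0.85), TIGAR (which lowers glycolytic flux, -0.69) and BBC3 (which encodes PUMA, -0.61) were lower by less. The 2 members above 0 were APAF1 (0.12) and ZMAT3 (0.40). P3 was the lowest array for 20 of the 29 genes (69.0%), against 20.1% of all genes.

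Genes that act on p53 did not move with its targets. The 9 detected regulators had a median of 0.02 with none 2-fold different, from MDM4 at -0.35, an inhibitor of p53, to TP53BP1 at 0.57, a damage-signalling partner. The p53 inhibitor gene MDM2 was under the limit on all 4 arrays.

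**Figure D2:**
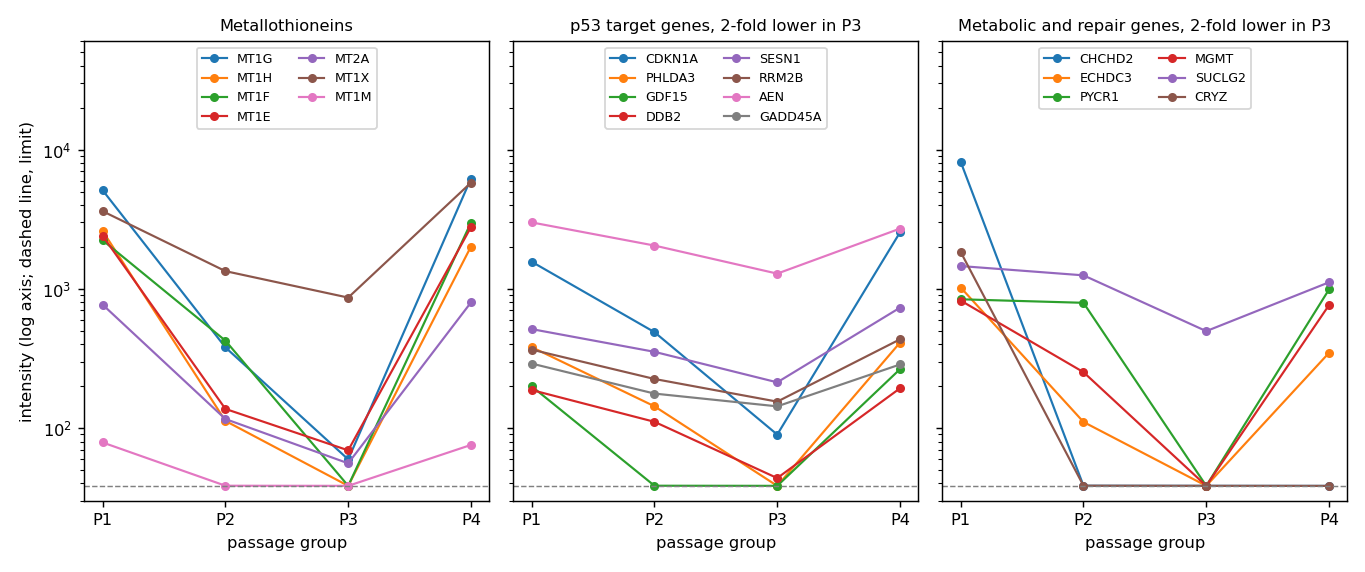
Intensity (log axis, held at the limit shown by the dashed line) in the 4 passage groups, 1 array each, of the 7 detected metallothionein genes, the 8 p53 targets at least 2-fold lower in P3, and 6 metabolic and repair genes. Metallothioneins and p53 targets are low in P3 and high in P1 and P4, whereas CHCHD2 and CRYZ are above the limit only in P1.

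Of the apoptosis lists, the proapoptotic one was near the level of all genes and the short antiapoptotic one leaned slightly higher. The 20 proapoptotic genes, among them the p53 targets BAX, TNFRSF10B, BBC3, PMAIP1 and APAF1, had a median of -0.02 with 10 above 0, and the 8 antiapoptotic genes a median of 0.24 with 6 above 0. Within the second list BCL2L1, which encodes BCL-XL and lies in 20q11.21, differed by 0.82, BCL2 by 0.66 and MCL1 by 0.41, while XIAP, a caspase inhibitor on the X chromosome, differed by -0.57. By the brightest probe, no member of either list was 2-fold different. The dimmer probe of BCL2L1, at 78.9 in P1 and 187 in P3, differed by 1.25 and was past 2-fold.

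DNA repair genes were mostly level, with 3 of 55 at least 2-fold lower (1.6% among all genes). MGMT, the enzyme that removes alkyl groups from guanine, read 824, 252, -5.86 and 764 across the 4 groups, at least 21.4-fold lower in P3. P3 was the only array on which it was under the limit. DDB2 is the p53 target given above. FANCF, part of the Fanconi anaemia core complex, read 84.3, 55.0, 41.3 and 46.2, 2.04-fold lower in P3 and close to the limit. The median of the list was -0.02, with 27 genes above 0.

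The amino acid response, in which ATF4 raises genes for amino acid supply, leaned low. Of 27 detected genes 5 were above 0, the median was -0.27 and 2 were at least 2-fold lower (1.6% among all genes). One was PYCR1, which makes proline in mitochondria, at 841, 794, 23.6 and 989.8 in P1 to P4 and at least 21.9-fold lower. The other was CHAC1, a glutathione-degrading enzyme gene, at 108, 24.5, 35.9 and 55.7, at least 2.81-fold lower. PYCR1 was under the limit on P3 alone, while CHAC1 was under it on P2 as well. SLC7A5, an importer of large neutral amino acids, differed by -0.75, the ATF4-induced genes ATF3 and TRIB3 by -0.52 and -0.20, ASNS, which makes asparagine, by -0.04 and ATF4 itself by -0.18. DDIT4, a gene raised by several stresses, was the highest at 0.56. P3 was the lowest array for 14 of the 27, against 20.1% of all genes.

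Other stress classes stayed near 0. Heat shock genes (17 detected) had a median of -0.03, from HSPA1L at -0.64 to HSPA1A at 0.55, both members of the HSP70 family. Genes of the unfolded protein response (16 detected) had a median of 0.08, with the endoplasmic reticulum chaperone HSPA5 at 0.06 and the pro-death factor DDIT3 at 0.56. Neither list had a member 2-fold different. Autophagy genes had a median of 0.07, with UVRAG the highest at 0.86.

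The antioxidant list held 1 large difference and was otherwise level. TXNIP, which binds and inhibits thioredoxin and limits glucose uptake, read 209, 105, 1133 and 591 across the groups in passage order, a 5.43-fold higher P3 level. The other 21 detected members were under 2-fold, and the median of the list was -0.09. Among them GPX7, a peroxidase of the endoplasmic reticulum, differed by -0.76, haem oxygenase HMOX1 and the glutathione synthesis subunit GCLM each by -0.53, and SOD1 by 0.25. The thioredoxin reductase gene TXNRD2 was not in the list and was 5.36-fold lower in P3, at 253 in P1 and 47.1 in P3.

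Immediate early genes, which respond to growth signals within minutes, were split. FOS read 69.0, 157, 479 and 446 in P1 to P4, 6.94-fold higher in P3, and KLF6 was 2.04-fold higher, at 824 in P1 and 1683 in P3. FOSL1, another FOS family gene, was at least 2.26-fold lower. EGR1 differed by 0.90, MYC by -0.46 (-1.13 on its other probe) and the YAP-responsive genes CCN1 and CCN2 by -0.47 and -0.72. The list median was 0.02, and P1 was the lowest array for 9 of 17 members, against 3728 of all 11844 genes.

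Interferon-induced genes had a median of 0.16 with 3 of 20 at least 2-fold higher, against 1.93% of all genes. BST2, which tethers budding viruses to the cell surface, read 1104, 1092, 2601 and 839.7, 2.35-fold higher in P3. IFI6 was 2.23-fold higher, at 168 in P1 and 374 in P3, but its other probe, at 211 in P1 and 241 in P3, differed by 0.20. B2M, the light chain of HLA class I, read 1844, 1784, 3731 and 2676, 2.02-fold higher, and differed by 0.90 on its other probe. ISG15 differed by 0.64 and IFIT1 by 0.50, whereas MX1 (-0.38), IFIH1 (-0.41) and HERC5 (-0.55) were on the other side of 0.

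**Figure D3:**
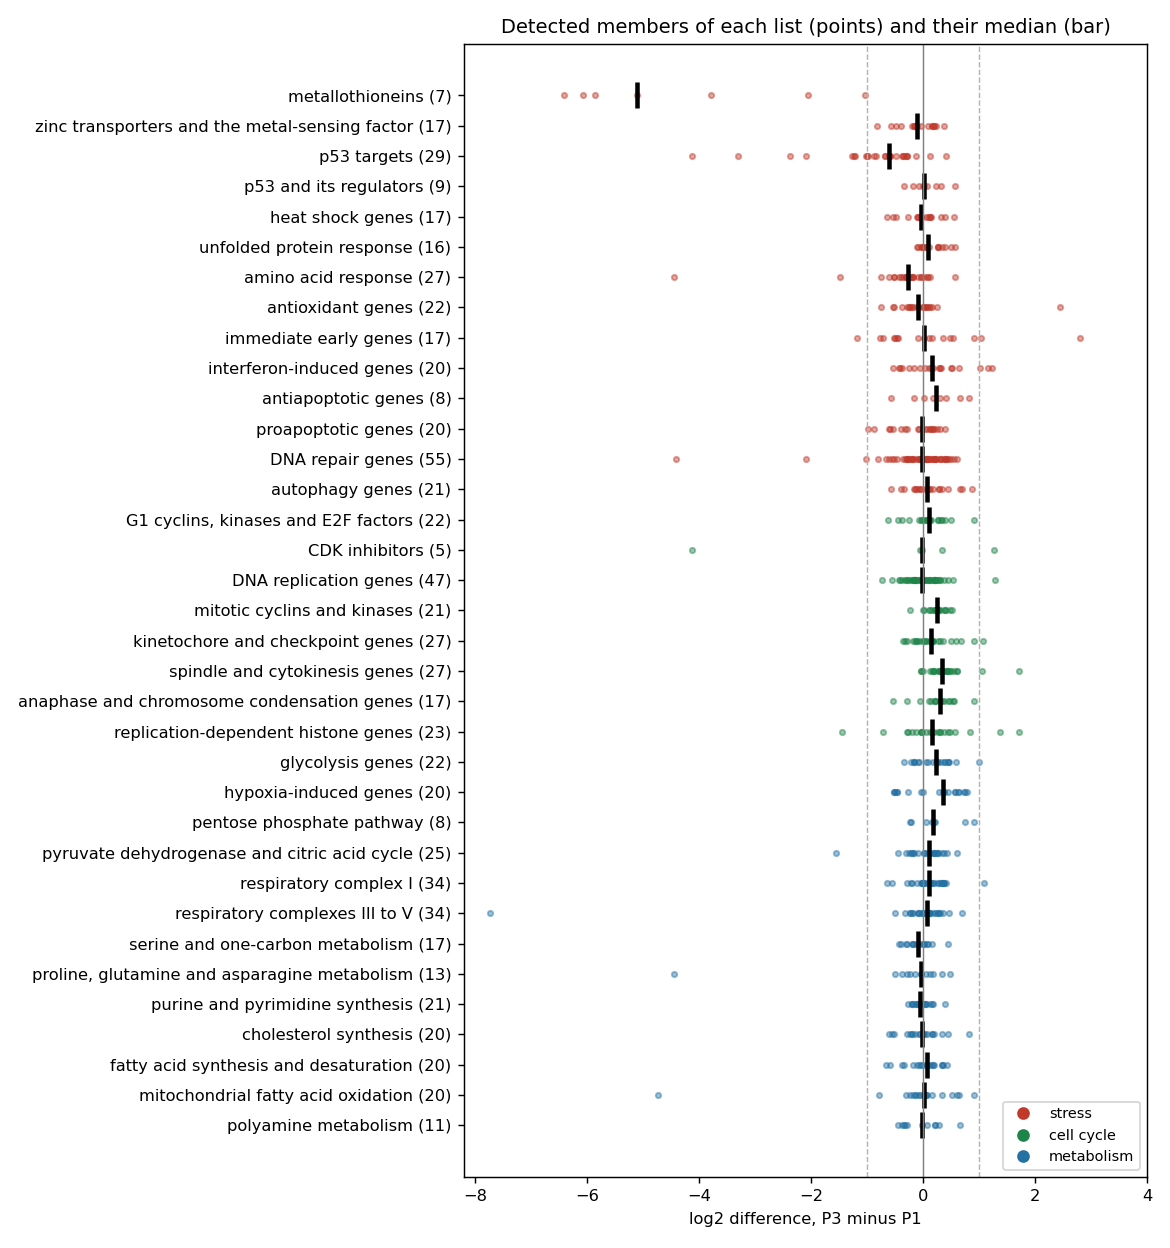
Log2 difference of P3 minus P1 for the detected members (points) of the stress, cell cycle and metabolic lists, with each list's median. Metallothioneins and p53 targets lie to the left of 0 and the spindle and mitotic lists mostly to the right. Most metabolic lists lie around 0 with single genes far to the left, and the glycolysis and hypoxia medians lie to the right.

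Mitotic genes were slightly and broadly higher in P3. Over 4 lists together (mitotic cyclins and kinases, kinetochore and checkpoint, spindle and cytokinesis, anaphase and condensation) 75 of 92 genes were above 0 (81.5%, against 52.2% of all genes), with a median of 0.24. That median is close to the 0.21 by which a pair of probes of 1 gene typically disagreed. P3 was the highest array for 42 of the 92 (45.7%), against 22.5% of all genes. P2 was the highest for another 33, and P1 was the lowest for 50, against 3728 of all 11844 genes. The lean was thus in part a low P1 level shared by the comparison with P2. By the brightest probe, only 3 of the 92 passed 2-fold on the high side, near the 1.93% of all genes, and none on the low side. The other probes of CENPE (1.13), UBE2C (1.06) and STAG2 (-1.12) were past 2-fold.

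Spindle and cytokinesis genes leaned furthest, with 24 of 27 above 0 and a median of 0.33. TPX2, which starts spindle assembly and activates Aurora A, read 1269, 1944, 4137 and 4098 in P1 to P4, 3.26-fold higher in P3. It lies in band 20q11.21. KIF2C, a motor that takes microtubules apart at kinetochores, read 646, 976, 1336 and 953, 2.07-fold higher. KIF20A and CDCA8, which act in cytokinesis and on centromeres, each differed by 0.60. P1 was the lowest array for 21 of these 27 genes, against 3728 of all 11844 genes.

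Kinetochore genes were more mixed, with 18 of 27 above 0 and a median of 0.13. The scaffold gene KNL1 was under the limit in P1 at 36.8 and read 81.4, 80.7 and 64.8 in P2, P3 and P4, at least 2.10-fold higher in P3. CENPE, a kinetochore motor, read 905, 1510, 1702 and 1512 (0.91), and BUB3, a checkpoint protein, differed by 0.68. The checkpoint partner MAD2L1 differed by 0.02 and the centromere histone CENPA by 0.05. In the anaphase and condensation list ESPL1, the separase that cuts cohesin, differed by 0.90, TOP2A by 0.54, CDC20 by 0.45 and the proliferation marker gene MKI67 by 0.34, and the cohesin subunit STAG2, on the X chromosome, by -0.55.

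Among cyclins and kinases, 19 of 21 were above 0 with a median of 0.24 and none 2-fold different. CDC25B, a phosphatase that activates CDK1, differed by 0.51, CDK1, the kinase that drives entry into mitosis, by 0.48, AURKA by 0.38, PLK1 by 0.23 and CCNB1 by 0.24. FOXM1, a transcription factor of mitotic genes, differed by 0.0048 and MYBL2, another, by -0.23.

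Short motifs known from mitotic promoters were counted in the same 250-base windows. The cell cycle homology region core, TTTGAA on either strand, was in 32 of 76 mitotic promoters available (42.1%), in 1 of 41 DNA replication promoters (2.44%) and in 13.6% of all promoters. The CCAAT box was in 64.5%, 53.7% and 33.0% of these. The windows of CDK1 (chr10:60778081-60778330, plus strand) and TOP2A (chr17:40417897-40418146, minus strand) from RefSeq GRCh38.p14 are shown as examples, with TTTGAA matches in capitals. Only windows with a match are shown. Those of KIF2C (a difference of 1.05), CENPE (0.91) and KIF20A (0.60) held no match.
CDK1: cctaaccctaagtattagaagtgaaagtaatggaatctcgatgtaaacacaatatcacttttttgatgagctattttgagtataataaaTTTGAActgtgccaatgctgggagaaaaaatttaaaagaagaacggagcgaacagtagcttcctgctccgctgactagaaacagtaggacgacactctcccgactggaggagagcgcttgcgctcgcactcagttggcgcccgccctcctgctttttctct
TOP2A: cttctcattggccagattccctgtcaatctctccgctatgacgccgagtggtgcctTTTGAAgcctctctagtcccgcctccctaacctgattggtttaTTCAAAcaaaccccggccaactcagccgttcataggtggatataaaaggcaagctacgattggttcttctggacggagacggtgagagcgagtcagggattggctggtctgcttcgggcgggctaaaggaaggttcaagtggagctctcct
These counts describe letters only, and no binding was measured.

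Genes of DNA synthesis did not lean the same way. Of 47 replication genes 21 were above 0 and the median was -0.02. The sliding clamp gene PCNA differed by -0.42, the origin factor CDC6 by -0.32 and the helicase subunit gene MCM2 by 0.01. PRIM2, a primase subunit, was the only member past 2-fold, under the limit in P1 at 34.0 and at 93.6 in P3, at least 2.44-fold higher. Its partner PRIM1 differed by -0.56.

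Regulators of the first gap phase had a median of 0.10 with 15 of 22 above 0 and none 2-fold different. The D cyclins diverged, with CCND3 at 0.91, CCND2 at 0.07 and CCND1 at -0.26. E2F1 was the lowest at -0.63, and the RB family members RB1 and RBL2 differed by 0.40 and 0.49. CDK inhibitors were split as well. Besides CDKN1A, only CDKN2D (p19) passed 2-fold, at 27.8, 74.9, 91.7 and 38.8 in passage order, at least 2.39-fold higher. CDKN1B differed by -0.05 on its brightest probe and by -0.51 on its other probe, at 648 in P1 and 455 in P3. CDKN3 differed by -0.02 and the imprinted gene CDKN1C by 0.33.

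Histone genes whose transcripts follow DNA synthesis had a median of 0.16 over 23 detected members. H2AC6 read 80.0, 42.8, 262 and 149, 3.28-fold higher in P3, and H2BC12 read 764, 567, 1978 and 625, 2.59-fold higher. H2AC17 was at least 2.73-fold lower, at 105 in P1 and 34.4 in P3. P3 was the highest array for 13 of the 23, against 22.5% of all genes, and the probes of this multigene family may share signal.

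**Figure D4:**
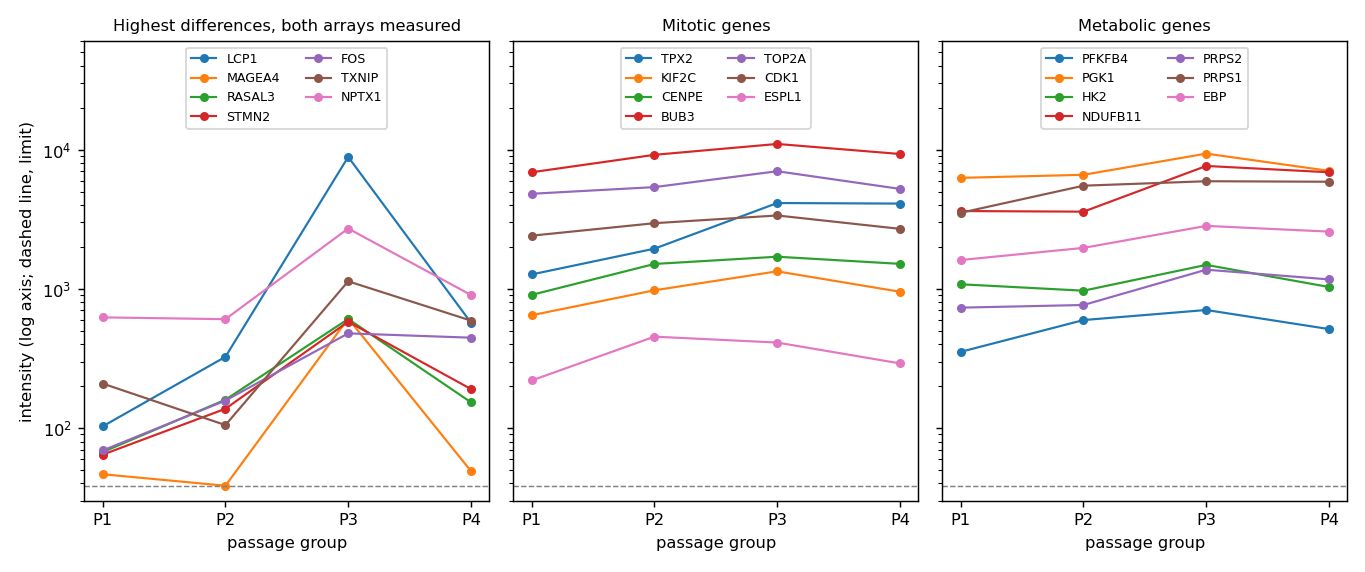
Intensity (log axis, limit dashed) in the 4 passage groups, 1 array each, of single genes far higher in P3 than in P1, of mitotic genes and of metabolic genes. LCP1, MAGEA4, RASAL3, STMN2 and NPTX1 peak in P3, while TPX2, NDUFB11 and FOS are about as high in P4 as in P3.

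Most metabolic lists were close to 0 as classes, and their large differences were single genes. Hypoxia-induced genes (median 0.36) and glycolysis (0.23) lay furthest above 0. Glycolysis had a median of 0.23 over 22 genes with 15 above 0. PFKFB4, which makes an activator of phosphofructokinase, read 353, 597, 705 and 514 and was 1.998-fold higher in P3, just short of the 2-fold limit. PGK1, an X-linked glycolytic enzyme, read 6275, 6598, 9369 and 7046 (0.58), and hexokinase HK2 differed by 0.46. The bottom of the list held PFKFB2 at -0.35 and HK1 at -0.22, with GAPDH at -0.17. P3 was the highest array for 10 of the 22, against 22.5% of all genes.

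Hypoxia-induced genes had a higher median, 0.36, with 13 of 20 above 0 and none 2-fold different. BHLHE40 (0.79), INSIG2 (0.74) and ANKRD37 (0.73, a bound) were the highest, the mitophagy receptor gene BNIP3 was at 0.63, and EGLN3, an oxygen-sensing hydroxylase gene, and ANGPTL4 were at -0.50 and -0.47. VEGFA, the endothelial growth factor, differed by 0.35. In the pentose phosphate list, which supplies ribose and NADPH, the highest were the X-linked PRPS2 (0.91) and PRPS1 (0.75), which make phosphoribosyl pyrophosphate. The median of that list was 0.17 with them and 0.10 without them.

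The citric acid cycle list had a median of 0.09 over 25 genes and 1 gene past 2-fold. SUCLG2, the GTP-forming succinyl-CoA ligase subunit, read 1458, 1250, 497 and 1115, 2.94-fold lower in P3 and lowest there. Its partner SUCLG1 differed by 0.36 and the ATP-forming counterpart SUCLA2 by -0.22. IDH3A, an isocitrate dehydrogenase subunit, was the highest at 0.61.

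Respiratory complex I had a median of 0.11 over 34 subunits, with 22 above 0 and P3 the highest array for 19. P3 was the highest for 22.5% of all genes. NDUFB11, an X-linked subunit, read 3623, 3586, 7639 and 6882 and was 2.11-fold higher in P3, with P4 close to P3. In complexes III to V the median was 0.06, and the 1 gene past 2-fold was CHCHD2, a mitochondrial protein that also regulates a cytochrome oxidase subunit. It read 8173 in P1 and 34.6, 34.5 and 26.0 in P2, P3 and P4, at least 213-fold lower in P3, the lowest difference of all genes. Here P1 stands apart and P3 does not, since all later arrays were under the limit.

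Amino acid and lipid pathways were level apart from PYCR1 and ECHDC3. ECHDC3, a mitochondrial relative of enoyl-CoA hydratases, read 1022, 111, -8.12 and 347, at least 26.6-fold lower in P3. Serine and one-carbon genes had a median of -0.09, nucleotide synthesis -0.05, cholesterol synthesis -0.03, fatty acid synthesis 0.06 and fatty acid oxidation 0.01. In cholesterol synthesis the X-linked isomerase gene EBP was the highest at 0.81 and CYP51A1 the lowest at -0.60. Polyamine genes had a median of -0.02, which was -0.28 without the X-linked SMS (0.20) and SAT1 (0.66), and ODC1, the first enzyme of the pathway, was the lowest at -0.46.

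Several of the higher metabolic genes lie on the X chromosome, and X-linked genes as a whole held more of the 2-fold higher calls than their number. This comparison and the X-linked genes it names were chosen after the values were seen. Of 435 detected X-linked genes 45 were at least 2-fold higher in P3 (10.3%) and 5 at least 2-fold lower. Elsewhere 184 of 11409 genes were 2-fold higher (1.61%), and single autosomes ranged from 0.589% to 4.45%. The X chromosome thus carried 19.7% of all genes 2-fold higher and 3.67% of all genes detected. The X-linked median was 0.14, with 60.9% of genes above 0, and autosome medians lay between -0.12 and 0.10. Against the same P1 array, 10 X-linked genes were 2-fold higher in P2 and 33 in P4. Those counts share the P1 array with the P3 comparison.

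The higher X-linked genes were bunched along the chromosome. In 29 blocks of 15 neighbouring detected genes, 22 of the 45 lay in 4 blocks and 11 blocks had none. In the block from HDAC6 to PRICKLE3 all 15 genes were above 0, 8 were at least 2-fold higher and the median was 1.09. The adjoining block from ARAF to SUV39H1 had a median of 0.93. The neighbouring blocks from TMSB15A to TCEAL1 and from MORF4L2 to FRMPD3, on the long arm, had medians of 0.75 and 0.77. Medians of 12 of the 29 blocks were at or below 0.

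Genes of these blocks show the steps. HDAC6, a cytoplasmic deacetylase of tubulin, read 138, 265, 394 and 293 in P1 to P4, 2.87-fold higher in P3. TIMP1, an inhibitor of matrix proteases, read 3024, 2713, 6691 and 5994, 2.21-fold higher. SLC35A2, which carries UDP-galactose into the Golgi, read 484 in P1 and was 2.54-fold higher in P3. P3 and P4 were the high arrays for TIMP1, and P1 the low array for HDAC6. Outside the blocks CDX4, a caudal homeobox factor, read 71.5, 249.3, 327 and 360, 4.58-fold higher in P3 than in P1. MAGEA4, a cancer-testis antigen gene, read 46.6, 17.5, 612 and 49.0, 13.1-fold higher, and P3 was its only high array. HEPH, a copper-dependent iron oxidase gene, went the other way with 406, 488, -1.43 and 513, at least 10.6-fold lower in P3. Without X-linked genes and those of 20q11.21, 176 genes were 2-fold higher and 185 lower.

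**Figure D5:**
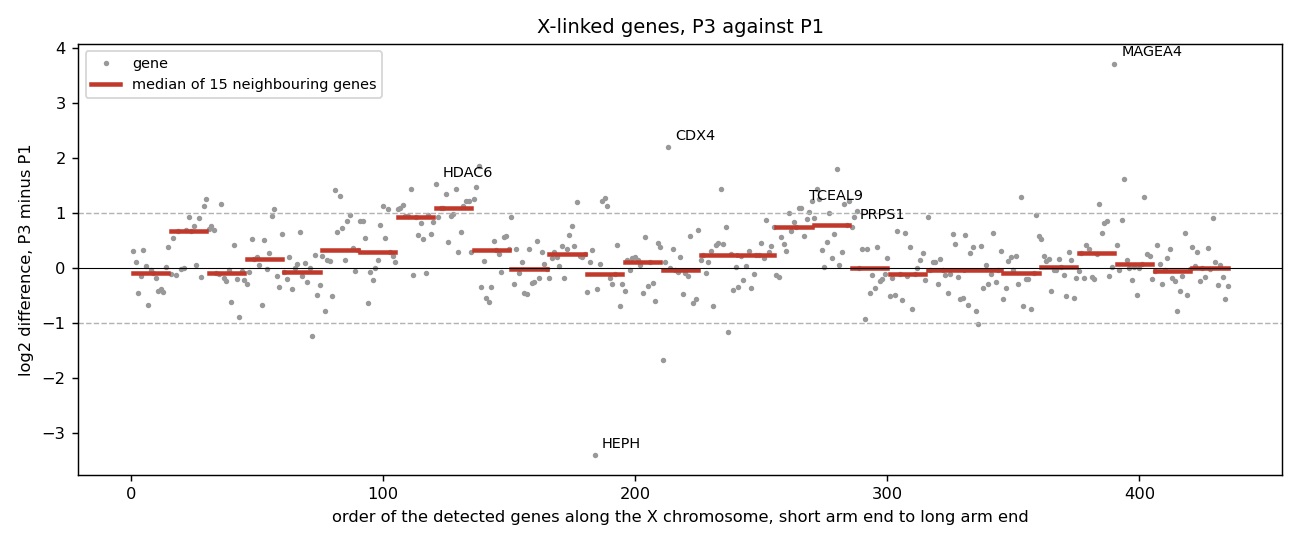
Log2 difference of P3 minus P1 for the 435 detected X-linked genes, in chromosomal order from the end of the short arm, with the median of each block of 15 genes. Block medians rise to 0.93 and 1.09 in 2 adjoining blocks and to 0.75 and 0.77 in 2 others, and lie between -0.11 and 0.67 elsewhere.

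Band 20q11.21 was the other region with many higher genes. Among its 15 detected members, 8 passed 2-fold on the high side and none on the low side, with a median of 1.07. Against the same P1 array the median was 0.50 in P2 and 1.27 in P4, so the higher levels were not particular to P3. P4 was the highest array for 8 of the 15 and P3 for 5. Among all genes 1.93% were 2-fold higher. CCM2L, an endothelial adaptor gene, read 293, 332, 1265 and 855, 4.31-fold higher in P3, PDRG1 was 3.67-fold higher and HM13, a signal peptide peptidase, 3.50-fold. COMMD7, KIF3B, TM9SF4 and PLAGL2 were 2.10-fold to 2.40-fold higher. DNMT3B, POFUT1, ID1, DUSP15 and MAPRE1 lay between -0.18 and 0.10. This split rests on the brightest probe of each gene. The other detected probe of ID1 differed by 1.06, those of POFUT1 by a mean of 0.72, those of DNMT3B by a mean of 0.33 and those of HM13 by a mean of 0.55. BCL2L1 differed by 0.82 on its brightest probe and by 1.25 on the other. The other probe of KIF3B differed by 1.27. Another 6 members with a probe were under the limit on both arrays, and with them held at the limit the median was 0.10.

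Pluripotency genes had a median of -0.16 over 22 detected members. POU5F1, the gene of OCT4, read 4101, 4345, 5445 and 5466 in P1 to P4 (0.41). NANOG read 1672, 1246, 1217 and 1625 (-0.46), and SOX2 differed by -0.15. FGF2, the growth factor that sustains these cells, read 895, 824, 424 and 791, 2.11-fold lower in P3. LEFTY1, a feedback inhibitor of Nodal, read 175, 663, 388 and 610, 2.22-fold higher in P3, with P1 the low array. The core factors thus differed by less than 2-fold and in different directions.

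A few lineage genes were above the limit in P3. STMN2, a neuronal microtubule regulator, read 64.4, 138, 581 and 191, 9.02-fold higher by its brightest probe, and its other probe read 56.0 in P1 and 348 in P3, a log2 difference of 2.63. MAP2, a neuronal microtubule protein, was at least 2.10-fold higher, at 25.2 in P1 and 80.5 in P3. FOXA2, an endoderm factor, was at least 2.41-fold higher, at 0.667 in P1 and 92.7 in P3. All 5 detected ectoderm genes were above 0, although PAX6 and SOX1 were not detected. Of 11 detected fibroblast and feeder-type markers 9 were above 0 (81.8%, against 52.2% of all genes), with a median of 0.33. LGALS1, a galectin, was 3.34-fold higher, COL6A3 2.92-fold higher and the growth factor receptor PDGFRB 2.10-fold lower.

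Several of the largest single differences set P3 apart from all other groups. LCP1, which bundles actin in blood cells and in many tumour cells, read 103, 325, 8869 and 572, 86.3-fold higher in P3. RASAL3, a RAS-inactivating protein gene of blood cells, read 67.1, 160, 607 and 153, 9.04-fold higher. The blood marker list did not follow, with a median of 0.15 over 4 detected members and none 2-fold different. NPTX1, a neuronal pentraxin, read 624, 605, 2714 and 903, 4.35-fold higher. On the low side NDN, an imprinted growth suppressor gene, read 2487, 2702, 41.2 and 2915, 60.3-fold lower. RIPOR2 was 7.63-fold lower and mitochondrial thioredoxin reductase TXNRD2 5.36-fold.

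Other genes differed because P1 stood apart. CRYZ, a quinone reductase gene, read 1839 in P1 and -4.16, -9.73 and -2.75 in P2, P3 and P4, at least 47.9-fold lower in P3. ZNF680, a zinc finger gene, read 636 in P1, and TRIM4, a ubiquitin ligase gene, 424, and both were under the limit in P2, P3 and P4. CTCFL, the testis paralogue of CTCF, read 320, 84.1, 47.2 and 114, 6.79-fold lower in P3, with P1 the high array. ACTA2, a smooth muscle actin gene, read 455, 125, 75.6 and 256, 6.01-fold lower, and neither P1 nor P3 stood 2-fold from every other array. PKIB, an inhibitor of protein kinase A, read 251, 1674, 1110 and 1731 and was 4.42-fold higher in P3, with P1 the low array. SCG2, a secretory granule protein, was under the limit in P1 at 15.9 and read 501, 228 and 291 in the later groups, at least 5.94-fold higher in P3.

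Setting P1 and P3 among the 4 arrays separates these cases. Of the 229 genes 2-fold higher in P3, the P3 level was at least 2-fold above each of the other arrays in 32, and the P1 level was at least 2-fold below each in 42. Of the 190 lower genes, P3 was at least 2-fold below each other array in 27 and P1 at least 2-fold above each in 44. ECHDC3, LCP1, RASAL3 and STMN2 met both conditions. In 158 higher and 120 lower genes neither array stood apart by that rule.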

How the data were processed

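Total RNA of H9 cells was hybridised to Illumina HumanHT-12 V4 arrays, 1 array for each of 4 passage groups. Per the labels' protocols, extraction used Trizol, column clean-up included DNase I, and cRNA carried biotin. The deposited intensity values are linear and had been background-subtracted and brought to near-equal quantiles by the authors, as the values themselves show; the software is not given in the sources used here. Near-equal quantiles hide any difference in total RNA.

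Probes were named from the platform annotation: 30113 had 1 symbol, 8 several and 17202 were not listed. Of 29969 used, 29930 matched a current RefSeq entry by Entrez identifier. Each gene was read from its brightest probe by mean over the 4 arrays. Values were held at each array's 60th percentile, as the 5th percentile is below 0, and log2 transformed, with no further normalization. Python 3.11.15, numpy 2.4.6 and pandas 2.3.3 were used, and the counting was tested on simulated data. Intensities carry no depth, and the number of arrays limits the precision.

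The comparison, the 44 gene lists and the named genes were chosen with earlier results of these data known. Genes named are the 10 highest and 10 lowest differences measured on both arrays, the 5 highest and 5 lowest bounds, up to 5 members of each list with the largest difference and every member past 2-fold, the 8 largest differences with P3 or P1 standing apart, and a fixed set of core genes. Other list members, and X-linked genes, were named after their values were seen. Y-linked and X-inactivation genes were not used here. Alternatives changed the limit, the scaling, the floor and the choice of probe.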

Additional observations from a re-analysis of the deposited data

How the results depend on the processing

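No paired analysis was possible because each group has 1 array, and for the same reason no array could be left out. The 229 higher and 190 lower genes became 438 and 356 with the limit at the 50th percentile, 87 and 62 with it at the 75th, and 107 and 85 when 50 was added to each value instead of flooring it. In the 10 other recounts the numbers stayed within 1.5 times. The metallothionein median of -5.12 was -4.45 at the 50th percentile or over genes detected on both arrays, -3.69 at the 75th, -4.36 with the offset, -3.79 with the mean of detected probes and -2.92 with undetected members held at the limit. Holding undetected members at the limit, an alternative added after the data were seen, also gave medians of 0.0097 for antiapoptotic, 0.095 for ectoderm, 0 for endoderm, 0.11 for fibroblast and 0.10 for 20q11.21 genes. Leaving out X-linked and 20q11.21 genes, also added later, gave -0.28 for polyamine genes and 0.83 for ectoderm markers. Among lists of 3 or fewer detected genes, mesoderm was 0.21 over genes detected on both arrays, endoderm 0.54 with the offset and trophoblast 0.31 at the 50th percentile. The other 377 recomputed list medians moved by at most 0.21, the median disagreement of a pair of probes, and of the recomputed differences of named genes 1450 did so while 146 moved further. No 2-fold call of a named gene and no list median beyond 0.1 changed sign. For the other 2-fold genes only the totals were recomputed. Values near the limit of 38.4 are close to background, so folds of dim genes are the least certain.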

Other observations

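Small non-coding RNAs were lower more often than higher in P3. Among 57 detected box C/D small nucleolar RNAs, which guide RNA methylation, 8 were at least 2-fold lower and 1 higher, with a median log2 difference of -0.14. Among all genes 1.6% were at least 2-fold lower and 1.93% higher. SNORD3A, the U3 RNA needed to process ribosomal RNA, read 5830.3, 2481, 1212 and 1660.3 from P1 to P4, 4.81-fold lower in P3. SNORD3C and SNORD3D, its near-identical copies, were 4.86-fold and 4.58-fold lower, and the probes of these copies may share signal. Of 13 Cajal body RNAs 4 passed 2-fold on the low side (median -0.65), and of 12 small nuclear RNAs 4 were. SCARNA8 read 785, 209, 212 and 151 in P1 to P4 and SCARNA13 read 764, 209, 228 and 149.7, so P1 was the high array for both. By contrast 2 of 55 box H/ACA RNAs were 2-fold lower and 1 higher, and their median was 0.06. The classes were chosen after their values were seen.

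Probes that the platform annotation does not list were also counted. Of 4431 that reached the limit in P1 or P3, 76 were at least 2-fold higher in P3 (1.72%) and 55 at least 2-fold lower (1.24%). Among 349 zinc finger genes of the ZNF series 6 were 2-fold higher and 7 lower, near the 1.93% and 1.6% of all genes.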
